A study of Homo sapiens with 32 samples.

Results

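The glycolytic enzymes HK1, GPI, PFKL, PFKP, ALDOA, GAPDH, PGK1, ENO1, PKM and LDHA were followed through every RNA sequencing library of the series. The members were taken by gene symbol from the count tables, and 10 of 10 were listed in both cell lines, among 57820 genes in HCT116 and 11887 genes in HEK293. HCT116 is a human colorectal cancer cell line and HEK293 a human embryonic kidney cell line. The series holds 32 samples, of which the 26 RNA libraries were used and the 6 chromatin samples were not analysed here. Within each gene the libraries were compared as CPM, the usual depth-scaled count of a gene, here over the reads assigned to genes. CPM is not scaled by transcript length, so levels of different enzymes are not ranked against each other.

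The HCT116 deletion groups were 1 E7 deletion clone with a library from each of days A, B and C, 3 18qNE deletion clones with 1 library each on days A, B and A, and 2 18qE deletion clones on day D. Their references were 4 HCT116 control clones with libraries from those days, the first 2 of them also on day D. In HEK293, 2 E7 deletion libraries were set against control clones 1 and 2, all of day E. E7, 18qE and 18qNE are distal elements that were deleted with Cas9, and the letters A to E are days of RNA extraction. All clones, controls included, had received Cas9-GFP and had been sorted for GFP and expanded from single cells. Deletion clones had received guide RNAs and control clones the empty guide vector. The E7 effect in HCT116 therefore rests on 1 clone, whose own variation has no replicate and is taken to be that of the controls. The HEK293 E7 libraries are numbered 1 and 2 in their titles but carry the same clone label, so their spread may be that within 1 clone.

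Glycolysis turns glucose into pyruvate in the cytosol and yields ATP and NADH. Hexokinases trap glucose, phosphofructokinases commit it to breakdown, aldolase splits the sugar, and the enzymes from GAPDH to pyruvate kinase make up the energy-yielding part of the pathway. Lactate dehydrogenase then regenerates NAD+ by turning pyruvate into lactate. Many cancer cells run this pathway fast even in oxygen, and MYC and the hypoxia factor HIF1A are known activators of several of its genes. The MYC gene is a known target of distal elements in colorectal cancer cells.

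The promoter windows that hold the core E-box CACGTG, the sequence that MYC with its partner MAX is known to bind, are shown first, because MYC differed between the E7 and control clones. RefSeq promoter windows (250 bases before to 50 bases after a gene start, build GRCh38.p14) were matched by symbol for 10 of 10 members, 22 windows in all. CACGTG was found on 3 of the 22, those of GAPDH at chr12:6535014-6535313 (plus strand), LDHA at chr11:18394313-18394612 (plus strand) and ALDOA at chr16:30064247-30064546 (plus strand). Across all 35116 windows of the table, 7.26% held it. PGK1 at chrX:78103998-78104297 (plus strand) is added because it holds ACGTG 3 times, the core that hypoxia factors are known to bind, without a whole E-box. Capitals mark CACGTG, or ACGTG where only those letters matched, with CACGT as its reverse strand. CACGTG reads the same on both strands and contains ACGTG, which 8 of the 22 windows and 21.4% of all windows held. A match describes the letters and does not show that a factor was bound.
GAPDH: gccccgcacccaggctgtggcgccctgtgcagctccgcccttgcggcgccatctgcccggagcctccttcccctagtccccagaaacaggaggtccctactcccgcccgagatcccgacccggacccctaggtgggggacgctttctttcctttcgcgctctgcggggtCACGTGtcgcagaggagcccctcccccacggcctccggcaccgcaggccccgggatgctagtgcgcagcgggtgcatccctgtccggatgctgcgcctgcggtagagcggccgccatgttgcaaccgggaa
LDHA: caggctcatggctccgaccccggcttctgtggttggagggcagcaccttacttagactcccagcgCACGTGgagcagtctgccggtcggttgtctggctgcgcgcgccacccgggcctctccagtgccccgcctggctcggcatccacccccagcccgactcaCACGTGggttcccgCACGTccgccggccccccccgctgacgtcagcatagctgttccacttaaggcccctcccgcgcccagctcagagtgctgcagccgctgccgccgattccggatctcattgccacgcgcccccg
ALDOA: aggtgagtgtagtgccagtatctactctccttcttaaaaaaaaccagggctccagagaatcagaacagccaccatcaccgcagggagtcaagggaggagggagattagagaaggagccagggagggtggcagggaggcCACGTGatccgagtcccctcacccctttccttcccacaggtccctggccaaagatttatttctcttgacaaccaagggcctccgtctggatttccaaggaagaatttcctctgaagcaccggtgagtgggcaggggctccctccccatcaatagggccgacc
PGK1: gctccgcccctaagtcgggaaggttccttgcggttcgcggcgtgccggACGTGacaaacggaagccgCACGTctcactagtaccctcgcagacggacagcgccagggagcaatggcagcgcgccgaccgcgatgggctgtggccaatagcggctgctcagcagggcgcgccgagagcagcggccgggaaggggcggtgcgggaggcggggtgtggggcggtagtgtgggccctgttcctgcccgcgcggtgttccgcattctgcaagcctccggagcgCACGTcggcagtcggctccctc

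Gene counts per HCT116 library ranged over 9871667 to 14862268 for days A to C. Day D libraries were deeper, with 22972412 to 24887785, and HEK293 libraries held 26491576 to 34790193. The lowest count of any enzyme in any library was 830 reads, for HK1. Reads aligned at several places made up 12.3% to 13.8% of the counted reads of days A to C and 15.6% to 24.8% on day D, the highest in 18qE clone 2. Summed markers of colon epithelium stood at 2904 to 5388 CPM in the HCT116 libraries, summed leukocyte markers at no more than 2.76 CPM and endothelial markers at no more than 1.46 CPM. Summed fibroblast markers stood at 10.7 to 30.1 CPM. Of the 6 listed, 2 to 3 were at 0 throughout a group, COL1A2 in every HCT116 group, and the others gave this sum. COL1A1 was among the others, with counts high enough to be tested across the control days. The HEK293 tables listed 4 of 8 epithelial markers, 5 of 8 HEK293 markers and none of the leukocyte, fibroblast or endothelial ones. In these bulk libraries, fewer cells of a type and less RNA per cell cannot be told apart.

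The first comparison asks what differed in the enzymes when E7 was deleted in HCT116. GAPDH, which oxidizes glyceraldehyde 3-phosphate and makes the NADH of glycolysis, was higher in the E7 clone, and no other member passed the test. GAPDH had 5703, 5437 and 5276 CPM in the E7 libraries of days A, B and C, against 3077, 3288 and 3843 CPM as the lowest, median and highest of 12 control libraries. Each E7 library lay above every control library, and the E7 level was 1.60, 1.62 and 1.63 times the control mean of its own day. The log2 change was 0.71 with an SE of 0.06 (edgeR quasi-likelihood test, adjusted p = 0.000669, 1 E7 clone against 4 control clones). Of the 10 enzymes, 1 was called, against 13.9% of all 17664 genes tested (7.58% higher and 6.32% lower). At an unadjusted p under 0.05 edgeR counted 5252 genes, with GPI and GAPDH among them. The 6 HEK293 markers listed in HCT116 summed to 13.1 to 19.7 CPM in E7, against 79.3 to 108 CPM in the controls, and mitochondrial mRNAs took 3.64% to 4.32% of gene counts in E7, against 4.71% to 6.60% in the controls. Their part in the enzyme levels was not tested. The median log2 change was 0.06 over the 10 enzymes and -0.01 over all genes tested.

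**Figure D1:**
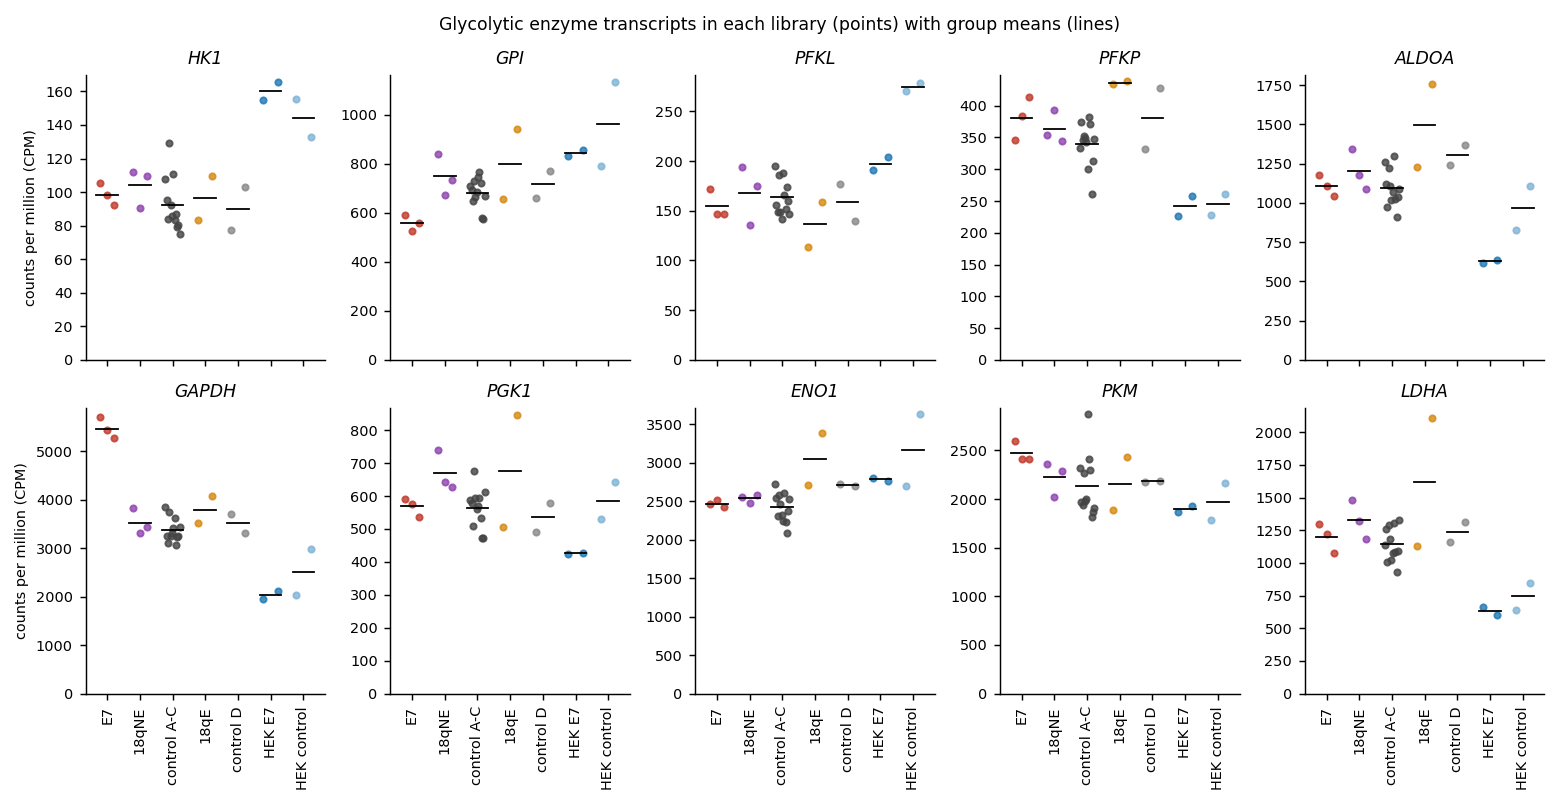
CPM of each enzyme (vertical axis, from 0) in every library (points) with group means (lines). Columns A-C and D are the HCT116 controls by day, and HEK marks HEK293. GAPDH stands apart in the 3 E7 libraries of HCT116 at 5276 to 5703 CPM, above all 12 controls of the same days.

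In the preparatory steps no member passed, and GPI lay furthest from the controls, with a mean CPM 18.1% below theirs. GPI, which turns glucose 6-phosphate into fructose 6-phosphate, had 591, 525 and 557 CPM in the E7 libraries, against 575 to 764 CPM in the control libraries. E7 lay below all controls of the same day on days B and C and within their range on day A. The log2 change of GPI was -0.28 with an SE of 0.12 (edgeR adjusted p = 0.161), and it passed without control clone 4 or with libraries as replicates. HK1, the hexokinase of most tissues, had 105, 98.0 and 92.3 CPM in E7 and 75.0 to 129 CPM in the controls, with a log2 change of 0.10 (SE 0.14). PFKL, the liver-type phosphofructokinase, averaged 155 ± 14.5 CPM (SD, n = 3) in E7 and 163 ± 18.1 CPM (SD, n = 12) in the controls. For PFKP, the platelet-type phosphofructokinase, the log2 change was 0.17 (SE 0.10), and for ALDOA, the muscle-type aldolase that most cells use, it was 0.03 (SE 0.09). Over all days, the E7 and control libraries overlapped for each of these 5 genes. Against the 4 controls of the same day, E7 lay above all of them on 2 of 3 days for HK1 and PFKP. It lay below all of them on 2 of 3 days for PFKL, and within their range on each day for ALDOA. With 4 controls a day such positions can arise from the order of libraries alone, and HK1, PFKL, PFKP and ALDOA did not pass.

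Downstream of GAPDH the members also overlapped with the controls. PGK1, which makes the first ATP of the pathway, averaged 569 ± 28.1 CPM in E7 (SD, n = 3) and 563 ± 58.8 CPM in the controls (SD, n = 12). ENO1, the main enolase, averaged 2471 ± 41.9 CPM in E7 and 2421 ± 185 CPM in the controls. PKM, pyruvate kinase, had 2602, 2411 and 2417 CPM in E7, against 1819 to 2879 CPM in the controls, with a log2 change of 0.22 (SE 0.15, edgeR adjusted p = 0.391). E7 lay above all controls of the same day in PKM on 2 of 3 days, which, as above, the order of libraries alone can give. LDHA, the lactate dehydrogenase subunit of skeletal muscle and many tumours, had a log2 change of 0.09 (SE 0.07). The 10 enzymes together took 1.45% ± 0.0531 of gene counts in E7 (SD, n = 3) and 1.20% ± 0.0892 in the controls (SD, n = 12). Without GAPDH these shares were 0.901% ± 0.0315 in E7 and 0.864% ± 0.0694 in the controls, and the libraries overlapped.

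**Figure D2:**
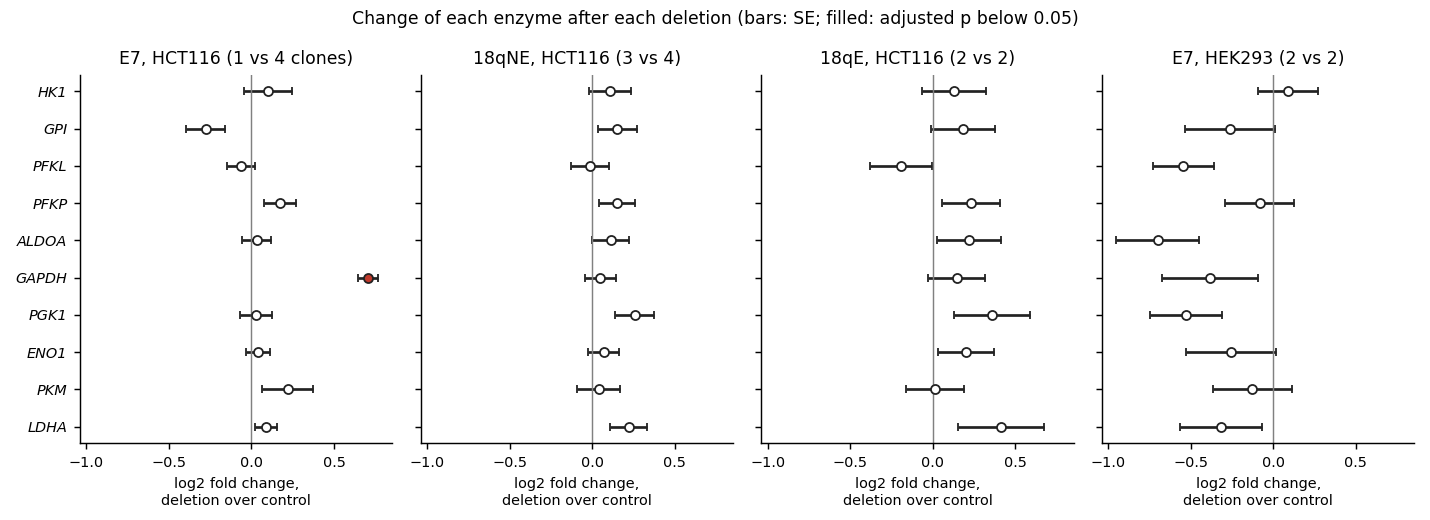
Log2 fold change of each enzyme, deletion over control (horizontal axis), with its SE (bars), in the 4 deletion comparisons. Filled points passed the edgeR test at an adjusted p below 0.05. Only GAPDH in the E7 clone of HCT116 is filled, at 0.71.

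GAPDH is often used to scale RNA measurements, so the same libraries were also expressed per GAPDH read. On that scale all 9 other enzymes lay below every control library in all 3 E7 libraries, by -0.98 (GPI) to -0.48 (PKM) on the log2 scale. The 9 genes scaled by library total overlapped with the controls. GAPDH was higher in each E7 library, so any gene level with the controls lies lower on this scale. ENO1, for example, stood at 0.03 by library total and at -0.66 per GAPDH read. How common such a separation is among all genes is not given here. The count of 9 is therefore not read as a result about these enzymes. In the 18qNE clones scaling by GAPDH gave -0.07 to 0.21, in the 18qE clones -0.33 to 0.25 and in the HEK293 E7 libraries -0.33 to 0.39.

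GAPDH lies on chromosome 12, and its neighbours differed in the same direction. Among the 15 tested genes on each side of GAPDH, 16 of 30 rose, none fell, the median log2 change was 0.57, and 11 were above GAPDH. From KDM5A to AMN1 along the chromosome, 115 of 212 tested genes rose and 2 fell, with a median log2 change of 0.58. GAPDH ranked 83 of 212 in that stretch. The boundaries of the stretch were chosen with the results known. Gene order came from the assembly GRCh38.p14 by symbol, while the files use hg19, so no coordinates are given for it. What part the level of the whole stretch has in that of GAPDH was not tested. With 1 clone, the deletion and other differences of that clone cannot be told apart.

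**Figure D3:**
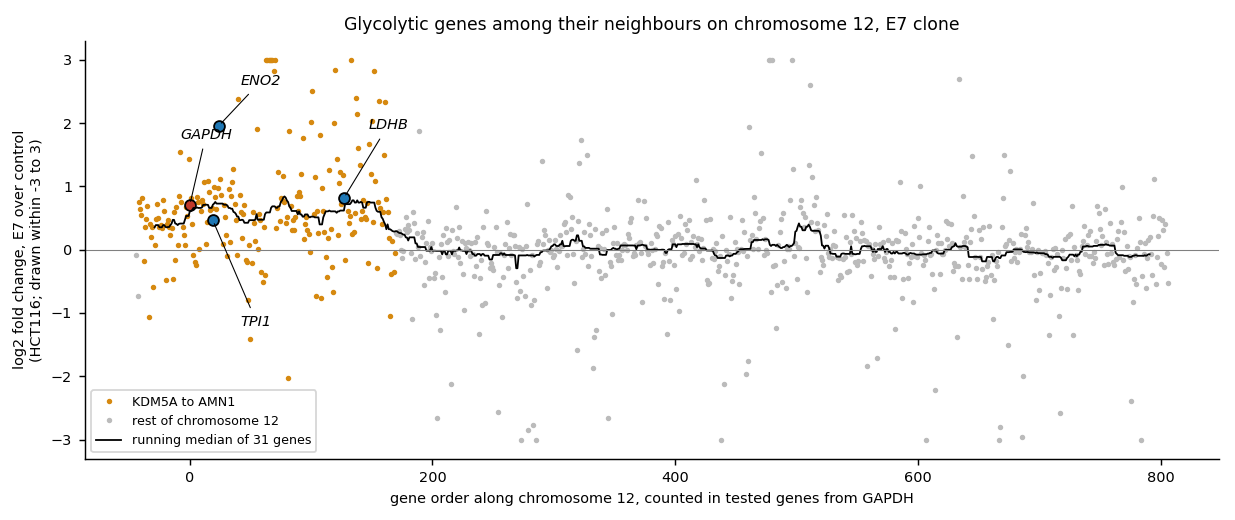
Log2 fold change, E7 over control in HCT116 (vertical axis, drawn within -3 to 3), of tested genes on chromosome 12 in gene order counted from GAPDH (horizontal axis). Coloured points are the 212 genes from KDM5A to AMN1 and the line is a running median of 31 genes. GAPDH at 0.71, TPI1 at 0.46 and LDHB at 0.82 lie within the raised stretch, and ENO2 at 1.96 lies above it.

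The same stretch holds other genes of glucose metabolism. TPI1, which interconverts the triose phosphates just before the GAPDH step, had 1092, 1110 and 1023 CPM in E7, against 718 to 947 CPM in the controls. Its log2 rise was 0.46 (SE 0.08, edgeR adjusted p = 0.00976), while the median of its own 30 neighbours was 0.72. LDHB, the heart-type lactate dehydrogenase subunit, had 1599, 1626 and 1589 CPM in E7, against 743 to 1109 CPM in the controls. LDHB rose by 0.82 (SE 0.12, adjusted p = 0.00467 with edgeR), beside a neighbour median of 0.62. ENO2, the neuronal enolase, had 161, 144 and 105 CPM in E7, against 19.0 to 54.8 CPM in the controls. ENO2 rose by 1.96 (SE 0.25, edgeR adjusted p = 0.00292), above all 30 of its neighbours, whose median was 0.72. SLC2A3, a glucose transporter of the same stretch, was low in both groups, with 4.4 to 6.5 CPM in E7 and 0.34 to 2.3 CPM in the controls, and rose by 2.38 (SE 0.51, edgeR adjusted p = 0.0215). Without control clone 1 it did not pass (edgeR adjusted p = 0.0533). TIGAR, a phosphatase that lowers fructose 2,6-bisphosphate and lies in the same stretch, had a log2 change of 0.35 (SE 0.11) and did not pass (edgeR adjusted p = 0.0753).

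Of all 17664 genes tested in the E7 comparison of HCT116, 7.58% rose and 6.32% fell. Over a list of 40 other genes of glucose metabolism, 31 were tested, 5 rose and 3 fell. Besides those on chromosome 12, ENO3, the muscle enolase, rose by 0.78 (edgeR adjusted p = 0.0298), with 9.6 to 14.1 CPM in E7 and 5.2 to 9.1 CPM in the controls. The 3 that fell were ALDOC, the brain aldolase, at -1.61, SLC16A1, a lactate and pyruvate transporter, at -0.59, and PDHB, a subunit of pyruvate dehydrogenase, at -0.45. ALDOC had 19.4, 17.5 and 13.9 CPM in E7, against 22.4 to 76.6 CPM in the controls. The list's median log2 change was -0.01, and also -0.01 over all genes tested. The call for ENO3 was lost without control clone 1 or 2, without day A or day B in both groups, or without the E7 library of day B (edgeR adjusted p 0.0553 to 0.0761), and that for ALDOC without day C (edgeR adjusted p = 0.0855). HK2, the inducible hexokinase, at -0.23, the muscle phosphofructokinase PFKM at -0.10 and the widely used mutase PGAM1 at -0.11 did not pass.

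LDHA and LDHB assemble into one tetramer whose make-up is known to affect its kinetics. The share of LDHB among LDHA and LDHB counts was 55.2%, 57.1% and 59.6% in the E7 libraries, and 40.1%, 43.3% and 52.9% as the lowest, median and highest of the 12 control libraries. The groups did not overlap, and LDHA itself did not pass. ENO2 made up 4.15% to 6.13% of ENO1 and ENO2 counts in E7 and 0.894% to 2.06% in the controls. These are shares of reads, which depend on transcript length.

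Of 8 listed regulators of the pathway, 7 were tested, HIF1A rose, and MYC and the glucose-sensing factor MLXIP fell. Over all 17664 genes tested, 13.9% were called. MYC had 177, 162 and 216 CPM in the E7 libraries, against 387 to 482 CPM in the control libraries, and fell by 1.19 in log2 units (edgeR adjusted p = 0.000733, SE 0.11). HIF1A had 418, 367 and 396 CPM in E7, against 137 to 201 CPM in the controls, and rose by 1.12 (SE 0.09, adjusted p = 0.000504 with edgeR). Of the members whose promoter window holds the E-box, GAPDH rose while LDHA at 0.09 and ALDOA at 0.03 did not pass. Of 20 hypoxia-response genes, 1 rose (BHLHE40) and 2 fell (EGLN3 and ANGPTL4), close to the share over all genes, with a median of -0.16. MLXIP and these 3 genes were named after their values were seen. The hypoxia list shares 4 genes (HK2, PDK1, PFKFB4 and SLC2A1) with the list of glucose metabolism and none with the 10 enzymes. What part either regulator has in the enzyme levels was not tested.

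**Figure D4:**
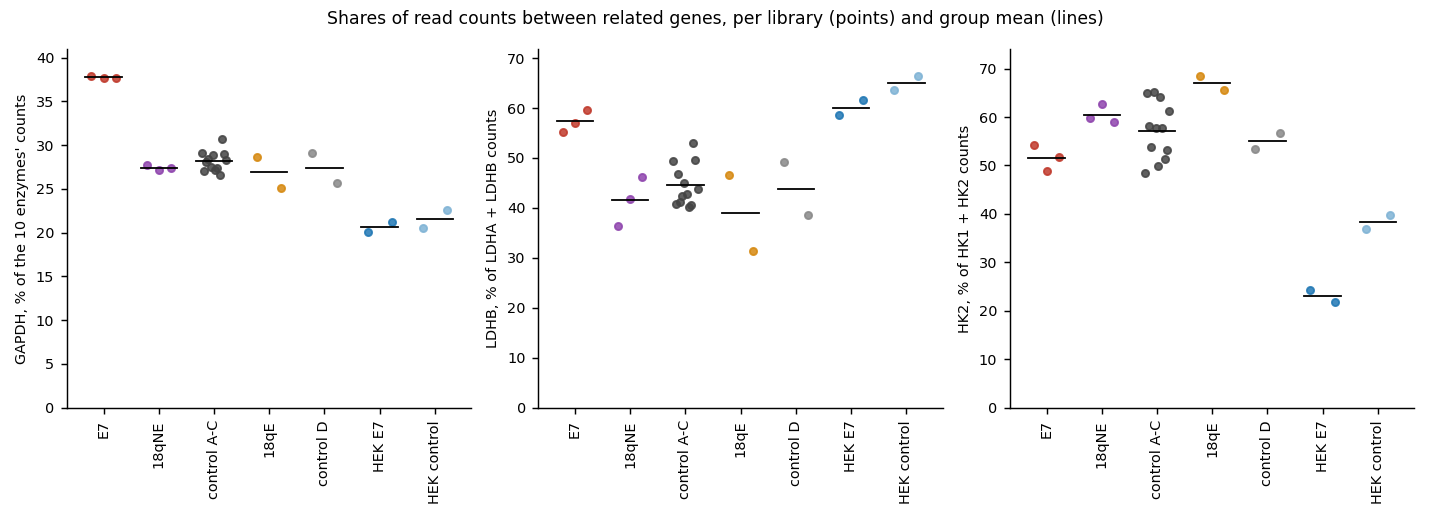
Share of read counts in each library (points) with group means (lines), for GAPDH among the 10 enzymes, LDHB among LDHA and LDHB, and HK2 among HK1 and HK2 (vertical axes in percent, from 0). E7 libraries of HCT116 sit at 37.7% to 37.9% for GAPDH, above the controls of days A to C at 26.6% to 30.7%, and at 55.2% to 59.6% for LDHB.

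The second comparison set the 18qNE clones against the sums of each control clone's libraries of days A and B, which are among the controls of the E7 comparison. None of the 10 enzymes passed, and 0 of 15524 genes did, a background of 0%. At an unadjusted p under 0.05, edgeR counted 505 genes and no enzyme. At an adjusted p under 0.05, DESeq2 called 13 genes and no enzyme. PGK1 had 739, 642 and 627 CPM in the 18qNE clones 1, 2 and 3, against 472 to 675 CPM in the control libraries of days A and B, and its log2 change of 0.26 (SE 0.12) was the highest of the 10. LDHA had 1485, 1321 and 1180 CPM in the 18qNE clones, against 931 to 1304 CPM in those control libraries, with a log2 change of 0.22 (SE 0.11). In 9 of 10 enzymes the log2 change was above 0, and all 10 lay between -0.01 and 0.26, with a median of 0.11 against 0.01 over all genes. The median of the enzymes was 0.03 without control clone 4 and 0.06 without 18qNE clone 1. The 20 hypoxia-response genes had a median of 0.36, with none called. SLC2A1, the main glucose importer of many tumour cells, had 655, 551 and 785 CPM in the 18qNE clones, against 307 to 410 CPM in the control libraries of days A and B. Its log2 change was 0.97 (SE 0.11), with an edgeR adjusted p of 0.136. SLC2A1 was named after its values were seen.

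The third comparison set 2 18qE clones against control clones 1 and 2 on day D. None of the 10 enzymes passed, and 0 of 15261 genes did, a background of 0%. edgeR counted 391 genes and no enzyme at an unadjusted p under 0.05. DESeq2 called 20 genes and no enzyme at an adjusted p under 0.05. The 18qE clones were unlike each other. LDHA had 1133 and 2107 CPM in the 18qE clones 1 and 2, against 1157 and 1312 CPM in control clones 1 and 2. PGK1 had 505 and 845 CPM in the 18qE clones, against 491 and 579 CPM in the controls. Clone 2 was the highest of the 4 libraries in 9 of 10 enzymes and clone 1 the lowest in 5, and the spread was wide. The log2 change was 0.41 for LDHA (SE 0.26) and 0.36 for PGK1 (SE 0.23), and without 18qE clone 2 the values were -0.043 for LDHA and -0.0016 for PGK1.

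Between the 18qE clones, clone 2 had from 1.01 times (PFKP) to 1.86 times (LDHA) the CPM of clone 1. PFKP was the exception to the clone difference, with 434 and 439 CPM in the 18qE clones and 332 and 428 CPM in the controls. Both 18qE clones thus lay above both controls, which with 2 libraries on each side can arise from their order alone. The log2 change of PFKP was 0.23 (SE 0.17) and did not pass. PFKL had 114 and 159 CPM in the 18qE clones, against 177 and 140 CPM in the controls. HK2 had 181 and 210 CPM in the 18qE clones, against 88.5 and 136 CPM in the controls, a log2 change of 0.83 (SE 0.22) that did not pass. The median log2 change was 0.19 over the 10 enzymes, 0.69 over the 20 hypoxia-response genes and 0.00 over all genes tested. The median of the enzymes was -0.02 without 18qE clone 2, where 7 of 10 were below 0, and 0.29 without 18qE clone 1. It was 0.10 without control clone 1 and 0.31 without control clone 2. Clone 2 is also the library with 24.8% of reads aligned at several places, and the part of this share in its levels was not tested. Annotated LDHA pseudogenes together reached at most 26.1 CPM, or 1.24% of LDHA, and the 64 GAPDH pseudogenes at most 2.76 CPM.

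The fourth comparison set the HEK293 E7 libraries against HEK293 controls. None of the 10 enzymes passed, against 0.0254% of 11806 genes tested, which is 3 genes. At an unadjusted p under 0.05 edgeR counted 1487 genes, with PFKL and ALDOA among them. At an adjusted p under 0.05, DESeq2 called 454 genes and no enzyme. ALDOA had 618 and 638 CPM in the E7 libraries 1 and 2, against 829 and 1109 CPM in control clones 1 and 2, with a log2 change of -0.70 (SE 0.25, edgeR adjusted p = 0.367). PFKL had 191 and 204 CPM in E7, against 271 and 279 CPM in the controls, with a log2 change of -0.55 (SE 0.19, edgeR adjusted p = 0.347). PGK1 had 425 and 428 CPM in E7, against 529 and 642 CPM in the controls, a log2 change of -0.53 (SE 0.22). For these 3 genes both E7 libraries lay below both controls, while the other 7 overlapped. With 2 libraries on each side, such a separation can arise from the order of libraries alone. How common it is among all genes is not given here, so it is not read as a result about these 3. In these libraries the 4 listed epithelial markers summed to 878 to 968 CPM in E7, against 434 to 632 CPM in the controls, and the 5 listed HEK293 markers to 477 to 484 CPM in E7, against 249 to 270 CPM in the controls. Their part in the enzyme levels was not tested.

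GAPDH had 1947 and 2112 CPM in the HEK293 E7 libraries, against 2045 and 2982 CPM in the HEK293 controls. Its log2 change was -0.38 (SE 0.29), and the median of its 30 neighbours on chromosome 12 was -0.01. The neighbours of ALDOA on chromosome 16 had a median of -0.54, beside its own value of -0.70. What part the level of the neighbours has in that of either gene was not tested. Without control 1 the change of GAPDH was -0.67, and without control 2 it was -0.040. Log2 changes were below 0 in 9 of 10 enzymes, with a median of -0.29 against -0.01 over all genes. The median of the enzymes was -0.54 without control 1 and -0.01 without control 2, where 5 of 10 were below 0. The controls were unlike each other, since control 2 was the highest of the 4 libraries in 9 of 10 enzymes and had 1.46 times the GAPDH of control 1. Without control 1 the log2 changes of PFKL, ALDOA and PGK1 were -0.61, -0.93 and -0.70. Without control 2 they were -0.49, -0.43 and -0.34. These fits have 1 control library, which is assumed to vary like the E7 libraries.

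MYC had 23.3 and 24.5 CPM in the HEK293 E7 libraries, against 67.4 and 156 CPM in the HEK293 controls, with a log2 change of -2.31 (SE 0.45, edgeR adjusted p = 0.222). HIF1A had 261 and 241 CPM in E7 and 262 and 150 CPM in the controls. HK2 had 49.8 and 46.2 CPM in E7, against 90.4 and 88.1 CPM in the controls, a log2 change of -0.96 (SE 0.17) that did not pass. HK2 made up 24.4% and 21.8% of HK1 and HK2 counts in the E7 libraries and 36.8% and 39.9% in the controls. ENO2 had 93.8 and 97.6 CPM in E7, against 43.7 and 44.5 CPM in the controls, a log2 change of 1.05 (SE 0.17) that did not pass.

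The E7 change was compared between lines by the interaction of line and deletion. None of the 10 enzymes passed, against 3.38% of 11849 genes tested. At an unadjusted p under 0.05 edgeR counted 2264 genes, with 4 enzymes (PFKL, ALDOA, GAPDH and PGK1) among them. For GAPDH, the HEK293 change minus the HCT116 change was -1.07 in log2 units (SE 0.28, edgeR adjusted p = 0.0850). The GAPDH difference was -1.35 without HEK293 control 1 and -0.72 without HEK293 control 2, fits that keep 1 HEK293 control. The median difference over the 10 enzymes was -0.52 and -0.13 in these fits. Of the other genes of glucose metabolism, LDHB passed with a difference of -1.44 (SE 0.31, edgeR adjusted p = 0.0483). The call was lost without any 1 of the 4 HCT116 control clones or either HEK293 E7 library (edgeR adjusted p 0.0813 to 0.191), and with both HEK293 E7 libraries summed as 1 clone (edgeR adjusted p = 0.179). LDHB had 933 and 956 CPM in the HEK293 E7 libraries, against 1119 and 1673 CPM in the HEK293 controls.

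The control clones of both lines were then compared, HEK293 over HCT116, on CPM over the genes listed in both tables. LDHA was lower in HEK293, with 641 and 846 CPM against 966 to 1371 CPM in HCT116, a log2 difference of -0.85 (SE 0.15, edgeR adjusted p = 0.00267). PFKP had 228 and 261 CPM in HEK293, against 271 to 394 CPM in HCT116, with a log2 difference of -0.70 (SE 0.12, adjusted p = 0.00262 with edgeR). GAPDH had 2045 and 2982 CPM in HEK293 and 3177 to 3983 CPM in HCT116, a log2 difference of -0.66 (SE 0.18, edgeR adjusted p = 0.0189). PFKL was higher in HEK293, with 271 and 279 CPM against 146 to 202 CPM in HCT116, a log2 difference of 0.51 (SE 0.10, edgeR adjusted p = 0.00333).

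HK1 was also higher in HEK293, by 0.39 (SE 0.13, edgeR adjusted p = 0.0407), with 155 and 133 CPM against 77.6 to 135 CPM in HCT116. In all, 5 of 10 enzymes were called, against 57% of 11805 genes tested (31.1% higher and 26% lower). Scaled by library totals, the median log2 difference over all genes was 0.23 in place of 0.05, 4541 genes were higher and 2255 lower in HEK293, in place of 3667 and 3065, and 6 enzymes were called, GPI being added. With the HCT116 controls of day D in place of days A to C, PFKP and LDHA were called, beside 3984 of 11760 genes tested. The call for HK1 was lost without any 1 of the 4 HCT116 control clones or without HEK293 control 1 (edgeR adjusted p 0.0519 to 0.0814). Without HCT116 control clone 1 or 2, PFKL, PFKP and LDHA were called, beside 5640 or 5653 of 11801 genes tested. The median log2 difference over the 10 enzymes was -0.27, and it was -0.09 without HEK293 control 1 and -0.46 without HEK293 control 2. The lines also differ in day, depth and the genes listed, which cannot be told apart from the line. MYC was lower in HEK293 with a log2 difference of -2.13 (SE 0.35, edgeR adjusted p = 0.00172). HK2 at -0.73, PFKM, the muscle phosphofructokinase, at -0.99 and SLC2A1 at -2.15 were also lower in HEK293 and passed the test. Of the 40 other listed genes of glucose metabolism, 25 were tested here, with 8 called higher and 5 called lower in HEK293. Their median log2 difference was 0.09, against 0.05 over all genes.

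The 4 HCT116 control clones were also compared across days of extraction. Of the 10 enzymes, 3 differed among days A, B and C with clone as a term (HK1, PFKL and PFKP), against 38.2% of 14988 genes tested. Day B over day A called 2 of the 10 and 38.5% of all genes, and day C over day A 3 of the 10 and 32.2%. PFKL averaged 186 ± 8.69 CPM on day A, 158 ± 7.35 CPM on day B and 147 ± 4.06 CPM on day C (SD, n = 4 each). It fell by 0.18 on day B (SE 0.07, edgeR adjusted p = 0.0385) and by 0.29 on day C (SE 0.07, edgeR adjusted p = 0.00392), both relative to day A. HK1 averaged 107 ± 20.9 CPM on day A, 87.9 ± 7.06 CPM on day B and 82.9 ± 5.36 CPM on day C, and day C over day A was -0.31 (SE 0.08, edgeR adjusted p = 0.0110). PFKP averaged 312 ± 40.3 CPM on day A, 355 ± 31.5 CPM on day B and 352 ± 13.1 CPM on day C, higher than day A by 0.24 on day B (edgeR adjusted p = 0.0253) and 0.22 on day C (adjusted p = 0.0432 with edgeR). Without control clone 2 none of the 3 was called, without control clone 3 only PFKL was, and without control clone 4 PFKP was not. PFKP was also not called among days when scaled by library totals (edgeR adjusted p = 0.0974). The day B change of PFKL was lost without any 1 of the 4 clones (edgeR adjusted p 0.0510 to 0.209).

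**Figure D5:**
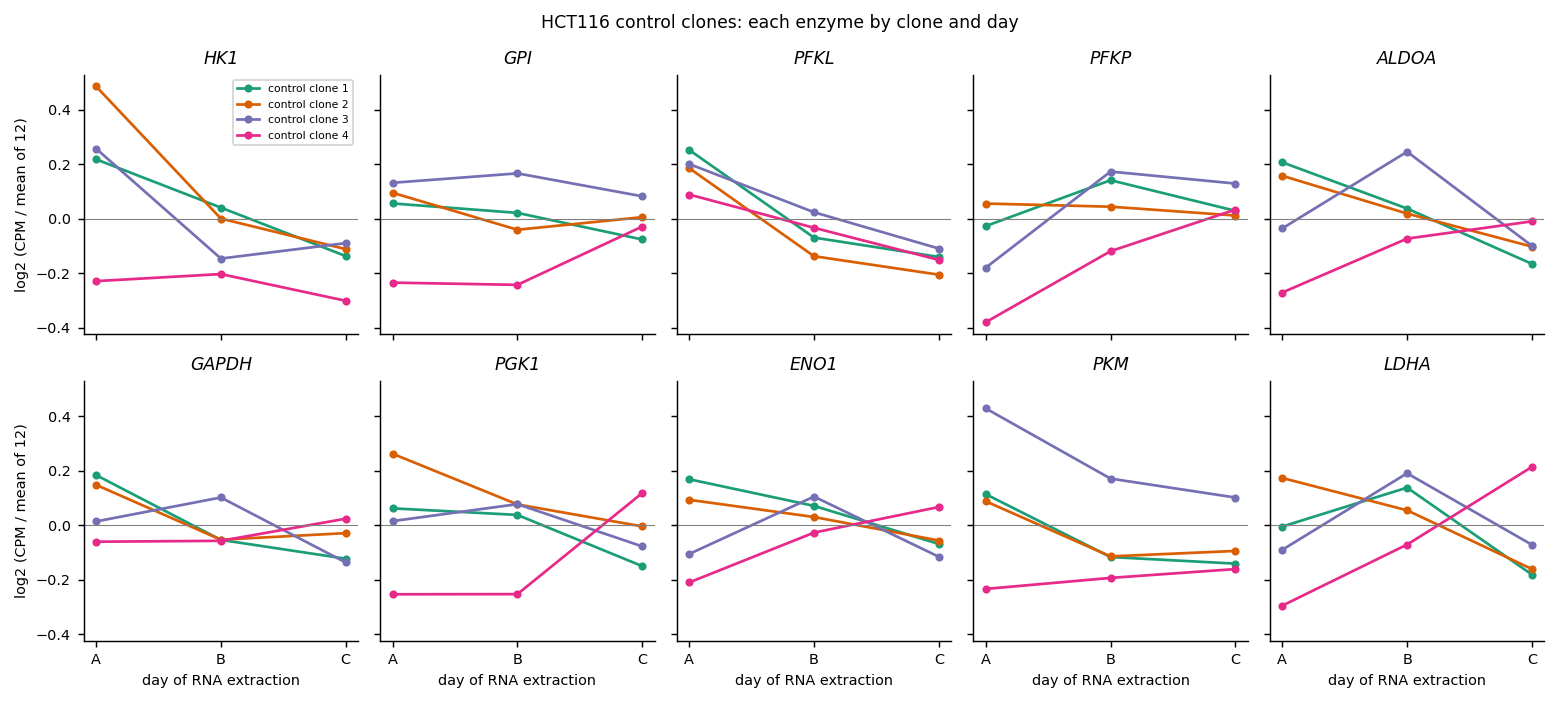
Each enzyme in the HCT116 control clones on days A, B and C (horizontal axis), as log2 of CPM over its mean of the 12 libraries (vertical axis), with a line per clone. PFKL declines over the days in all 4 clones, and PKM lies highest in clone 3 on each day.

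Control clones differed in PKM, which was called among the 4 clones with day as a term (edgeR adjusted p = 0.0117), 1 of 10 enzymes against 7.8% of 14988 genes. Clone 3 had 2879, 2408 and 2295 CPM of PKM on days A, B and C, a log2 difference of 0.36 from the other clones (SE 0.07, edgeR adjusted p = 0.00377). Clone 4 had 1819, 1871 and 1913 CPM of PKM, -0.27 relative to the others (SE 0.07, edgeR adjusted p = 0.0405). Clone 4 was also lower in HK1, with 78.9, 80.3 and 75.0 CPM, a log2 difference of -0.32 (SE 0.08, edgeR adjusted p = 0.0263). Clone 3 differed from the other clones in 7.52% of all genes and clone 4 in 5.22%. The call for PKM among clones was lost without day B or without day C. The libraries of a clone are repeat extractions, so these p-values measure the spread between days within a clone.

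On day D, control clones 1 and 2 were compared with their own libraries of days A to C. None of the 10 enzymes passed, against 0.453% of 14782 genes tested, and ALDOA had an unadjusted p under 0.05 with edgeR. ALDOA had 1243 and 1370 CPM in clones 1 and 2 on day D, against 976 to 1263 CPM in the same clones on days A to C, a log2 difference of 0.30 for day D over days A to C (SE 0.12, edgeR adjusted p = 0.332). Without day A, ALDOA was called, beside 2150 of 14419 genes tested. Day D libraries are also deeper, and day and sequencing depth cannot be told apart.

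Over the 18 HCT116 libraries of days A to C, the genes whose log2(CPM + 1) was most like the mean z-score of the 10 enzymes were TNIP1 (r = 0.84), NARF (r = 0.78), LGALSL (r = 0.77), VKORC1 (r = 0.75) and DCTN3 (r = 0.75), among 9638 candidates. These are descriptions over libraries of 8 clones that share days, depth and, for 5 of the clones, repeat extractions.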

How the data were processed

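RNA libraries were deposited as whole-number counts of reads per gene, 1 library per file, as the authors left them and with no normalization. The submitters' processing notes name the build hg19 and, with no order, TopHat2, HTSeq 0.6.1, Partek 3, CASAVA, bedtools, bcl2fastq and BWA 0.6.2. No source used here gives the strand setting of the counting or the rule that chose the 11887 genes of the HEK293 files. Without strand, reads of overlapping or antisense partners cannot be told apart. HCT116 files also held 5 summary lines, which stayed out of library totals. On days A to C, 12.3% to 13.8% of counted reads stood in the line for reads aligned at several places, and 15.6% to 24.8% on day D.

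From these counts, CPM was computed over gene counts. Each test was the 2-sided quasi-likelihood F test of edgeR 4.0.16 (R 4.3.3) with TMM scaling, after filterByExpr at a minimum count of 10. Fits covered the whole table, p-values were Benjamini-Hochberg adjusted over it, and the threshold was 0.05. Genes past it are said to rise or fall. Each SE is the absolute log2 change over the square root of F. In the HCT116 comparisons of deletion and control and in the control clones between lines, the clone was the replicate. The 2 HEK293 E7 libraries, which carry 1 clone label, were counted as 2 replicates, and comparisons of days and of control clones used single libraries. Control and E7 clones of HCT116 were summed over days A to C, and controls of the 18qNE clones over days A and B. The p-values therefore reflect how much these clones or libraries differ from each other. DESeq2 1.42.0, other size factors, no filter, single libraries, left-out libraries and replicate blocks were alternatives. The scripts were tested on simulated data.

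The lowest enzyme count, 830 reads, has a counting error of 3.47%. The members, the gene lists, the chromosome 12 boundaries and the tests were chosen with earlier results of these data known. Named genes are the 10 enzymes, HK2, PFKM, TPI1, PGAM1, ENO2, LDHB, MYC and HIF1A, any other listed gene of glucose metabolism that passed in a deletion comparison, and the 5 most similar genes whose mean reached 10 CPM. Symbols and gene order came from NCBI tables of GRCh38.p14 (51996 of 57820 HCT116 genes and 11567 of 11887 HEK293 genes matched). Promoter sequences are RefSeq's for that build.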

Additional observations from a re-analysis of the deposited data

Results flagged for a closer look

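In the HCT116 controls, GAPDH of control clone 3 on day B stood apart from the other control clones of that day, at 3630 CPM beside 3251 to 3260 CPM. PGK1 of control clone 4 on day B stood below the others, at 473 CPM beside 578 to 594 CPM. These are 2 of 30 sets of 4 control libraries examined for a sample far from the others, and chance gives about 1 in 20, or 1.5 here. In the same library of control clone 3, GAPDH was still below all 3 E7 libraries.

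The change of LDHB after deletion of E7 differed between the cell lines, with the HEK293 change minus the HCT116 change at -1.44 on the log2 scale (edgeR adjusted p = 0.0483). It no longer passed without any 1 of the 4 HCT116 control clones or without either HEK293 E7 library (edgeR adjusted p 0.0813 to 0.191), nor with both HEK293 E7 libraries summed as 1 clone (edgeR adjusted p = 0.179). LDHB rose by 0.82 in the E7 clone of HCT116, in 3 of 3 libraries, and its change in HEK293 was -0.64 (edgeR adjusted p = 0.444), in 2 of 2 libraries.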

How the results depend on the processing

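GAPDH in the E7 clone of HCT116 passed under every alternative run, with a log2 change of 0.69 to 0.72. Leaving out a clone, library or day gave 1 to 2 enzymes and 1477 to 3087 genes there (1477 without control clone 1, 1499 without control clone 2), and libraries as replicates with day as a block gave 2 enzymes and 5178 genes; ALDOA ran from -0.0084 to 0.056 and PGK1 from -0.013 to 0.065 on the log2 scale. For 18qNE, no enzyme passed under any alternative; without a filter 16 genes passed, with DESeq2 13, with day as a term 3, and with a clone left out 0 to 1. Ranges over left-out clones were 0.014 to 0.19 for HK1, -0.13 to 0.11 for PFKL, -0.014 to 0.078 for GAPDH and -0.048 to 0.15 for PKM. For 18qE, no enzyme passed under any alternative; DESeq2 called 20 genes, left-out clones 0 to 132, and library totals put PKM at -0.015. Ranges over left-out clones were -0.075 to 0.36 for HK1, -0.044 to 0.38 for GPI, -0.011 to 0.42 for ALDOA, -0.0016 to 0.65 for PGK1, -0.13 to 0.14 for PKM and -0.043 to 0.76 for LDHA.

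In HEK293, DESeq2 called 454 genes, E7 libraries summed 71, and a left-out library 74 to 6210 genes and 0 to 8 enzymes, with GPI from -0.54 to 0.063, PFKP from -0.22 to 0.060, ENO1 from -0.50 to 0.020 and PKM from -0.30 to 0.060. With the HEK293 E7 libraries summed, an alternative added after seeing the data, the difference between lines called 40 genes and no enzyme. It called 35 to 4701 genes and 0 to 6 enzymes with a library left out, with HK1 from -0.064 to 0.086, GPI from -0.24 to 0.36 and ENO1 from -0.51 to 0.0017. Between control lines, day D controls gave 2 enzymes, 3984 genes and ENO1 at -0.056; left-out clones gave 3 to 8 enzymes and 5640 to 8641 genes, GPI from -0.064 to 0.54 and ENO1 from -0.13 to 0.39. Among days, left-out clones gave 0 to 3 enzymes and 2228 to 6465 genes (day B over A 0 to 2 and 2688 to 6365; day C over A 0 to 3 and 1901 to 4986). Among clones, a left-out day gave 0 to 1 enzymes and 308 to 1694 genes, and no filter 3 and 1959. Day D over days A to C gave 0 to 1 enzymes and 21 to 2150 genes with a day left out, and 467 genes without a filter. Each HEK293 fit with a library left out, or with the E7 libraries summed, keeps 1 library in a group. Its counts are not read as results about the enzymes. The causes of these changes were not tested.

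Replicate numbers were not taken to pair samples: deviations of same-numbered samples correlated at -0.28, -0.24 and 0.12 for 18qNE, 0.12 for 18qE and 0.38 for HEK293, the last with 2 pairs each. With a replicate block, 0 genes passed for 18qNE, 0 for 18qE and 670 for HEK293, and no enzyme in any of them; the block put HK1 at -0.0071, GAPDH at -0.0099 and PKM at -0.059 for 18qNE. The block put the median of the enzymes at 0.0077 for 18qNE, with 4 of 10 below 0. Counting error was at most 3.47% for any enzyme in any library.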
